A study of Arabidopsis thaliana with 2 samples.

Results

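The genes described here are nuclear genes of Arabidopsis thaliana for photosystem subunits, thylakoid lumen proteins and the soluble electron carriers that serve them. They were chosen by the words of their array annotation (photosystem, PsbP, PsbQ, oxygen-evolving, thylakoid lumen, plastocyanin, photosynthetic electron transfer or ferredoxin). Annotations naming light-harvesting or chlorophyll-binding proteins, plastocyanin-like proteins, uclacyanins or thioredoxin were left out, as was AT5G04140, a ferredoxin-dependent glutamate synthase. This gave 76 genes out of 25295 loci named alone by a probe. The rule uses no measured value. The words also caught genes outside photosynthesis, and of the 76, 2 were mitochondrial ferredoxins and 13 carried only the word ferredoxin or PsbP.

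The cells were T87, a suspension line of Arabidopsis thaliana grown with shaking under a light-dark cycle. The later group was cells 8 days after inoculation of fresh medium and the earlier group was cells 1 day after it, with no genotype or agent differing between them. Each day was 1 array with 2 channels and 1 biological replicate, so no difference between days has a replicate check and no p-value is given. On each array, RNA of the polysomal part of a sucrose gradient (fractions 1 to 3) was set against the other pool, which the design text names as total RNA (fractions 1 to 8) and a spike-in sentence of the labels as nonpolysomal. The polysome ratio is used here as the polysomal signal in percent of that denominator. The labels also differ on which dye carried the polysomal pool, and the ratio is read with the polysomal pool on top. Read the other way, every ratio would be inverted and every direction and order given here would turn: 67 of the 68 measured members would be higher on day 8, with medians of 499% on day 8 and 278% on day 1.

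Photosystem II oxidises water at a manganese cluster on the lumen side of the thylakoid, and photosystem I reduces ferredoxin on the stroma side. Electrons pass between them through the cytochrome b6f complex and plastocyanin. The reaction centre proteins are encoded in the plastid, while many of the smaller subunits, the oxygen-evolving proteins and the carriers are encoded in the nucleus, translated on cytosolic ribosomes and imported. An mRNA bound by several ribosomes sediments deep in the gradient, so a high polysome ratio marks an mRNA that is largely ribosome-bound.

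Spots with no hybridisation did not read as 0 but took a common ratio that changed slowly over the slide. For the negative controls the middle value was 25.1% on the day 8 array and 53.8% on the day 1 array. A probe within a small tolerance of that value cannot be told from a probe without signal and was left out. Both arrays gave signal for 68 of the 76 members, and for 19492 genes in all out of 25295. Signal was thus missing for a smaller share of the members than of all genes. FD4, a ferredoxin, and AT1G50780, a ferredoxin-like gene, were at the no-signal value on both days. A further 6 were there on day 8 alone: PSBO2 (25.6% on day 8 and 31.3% on day 1 as deposited), PSBY (25.4% and 41.5%), PSB29 (24.8% and 33.6%), PQL3 (25.4% and 46.8%), AT1G02180 (25.0% and 43.9%) and AT1G49975 (26.1% and 11.1%). For these the deposited day 8 value may be a true ratio that happens to lie at that level, and this was not tested. Of 5 marker genes of green cells, 4 had signal on both days. CA1, a plastid carbonic anhydrase, was the exception, at the no-signal value on day 8. All 3 markers of heterotrophic plastids had signal on both days. The 4 green-cell markers, which also stand in the antenna and Calvin cycle lists, ran from 8.93% to 12.02% on day 8 and from 33.6% to 42.8% on day 1. Their median change on the log2 scale was -1.90. All 4 were past 2-fold lower also when counted from the median gene, beside 10.9% of all genes. The 4 are single genes of families with mixed changes. LHCB1.2, LHCB1.4, LHCB4.2 and GAPB had changes of -1.51, -1.67, -1.45 and -1.51. LHCB1.5, GAPA2, RBCS1B, RBCS2B and RBCS3B had -0.81, -0.78, -0.70, -0.53 and -0.52. LHCB4.3 had -0.13 and LHCB1.3 had 1.05. The heterotrophic markers, of which FD3 is itself a member, ran from 23.3% to 34.4% on day 8 and from 36.3% to 42.8% on day 1 (median change -0.48). The part of either in the members' values was not tested. Ratios give no mRNA level, and in a bulk culture fewer cells of a type and less RNA per cell cannot be told apart.

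The 68 measured genes had lower polysome ratios on day 8, with a median of 20.0% (quartiles 15.5% and 24.0%) on day 8 and 35.9% (quartiles 32.2% and 38.2%) on day 1. Over all genes the medians were 24.2% on day 8 and 36.0% on day 1. The members thus lay at the middle of all genes on day 1 and below it on day 8: 53 of 68 were under the median gene's ratio on day 8 and 34 of 68 were on day 1. The median change of the members was -0.79 on the log2 scale, a day 8 ratio 0.577 times that of day 1, and that of all genes was -0.52, or 0.697 times.

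Of the 68 members, 67 had a lower ratio on day 8, where 81.4% of all genes did. A ratio lower by 2-fold or more was seen in 23 members (33.8%), beside 25.7% of all genes, and a ratio higher by 2-fold or more in none, beside 1.18% of all genes. This excess of lower ratios depended on leaving out features without signal, which have a change of -1.10 themselves. With them kept, 25 of 76 members were lower by 2-fold or more, beside 34.8% of all genes. Relative to the median gene, 54 members lay below and 14 above, where 49.9% of all genes lay below. Where 0 lies is not settled, since the median change of the 10 spike-in probes was -0.29. The single probes ran from -0.55 to 0.61, a range that holds the median of all genes. Counted from the median spike-in probe, 60 members were lower, beside 64.0% of all genes, and 11 were lower by 2-fold or more, beside 16.2%. Counted from the median gene, 8 members were lower by that much, beside 10.9% of all genes, and 1 (AT1G79010) was higher by it, beside 4.38%. The share also depended on which members were counted. On the deposited scale, 6 of the 26 measured photosystem subunits and carriers listed by hand (23.1%) and 16 of the 55 measured members with a photosynthetic or plastid role (29.1%) were lower by 2-fold or more. The share of the subunits was thus close to the 25.7% of all genes, and on the other scales the share of all members was close to that of all genes.

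The members differed from all genes more at the upper end than at the lower end of the day 8 distribution. A day 8 ratio above the upper quartile of all genes was found for 5 of 68 members (7.35%), and a day 8 ratio of at least 30% for 7 (10.3%), against 34.0% of all genes. At the lower end, 16 members (23.5%) had a day 8 ratio under 15%, against 19.8% of all genes. The interquartile range on the log2 scale was 0.63 on day 8 and 0.25 on day 1 for members, and 1.00 on day 8 and 0.32 on day 1 for all genes. No member exceeded 100% on either day, and of all 19492 genes only 33 did on day 8 and 73 on day 1. Spearman's rho between day 8 and day 1 ratios was 0.365 across the 68 members and 0.389 across all genes, which describes genes that share both arrays and not independent samples.

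**Figure D1:**
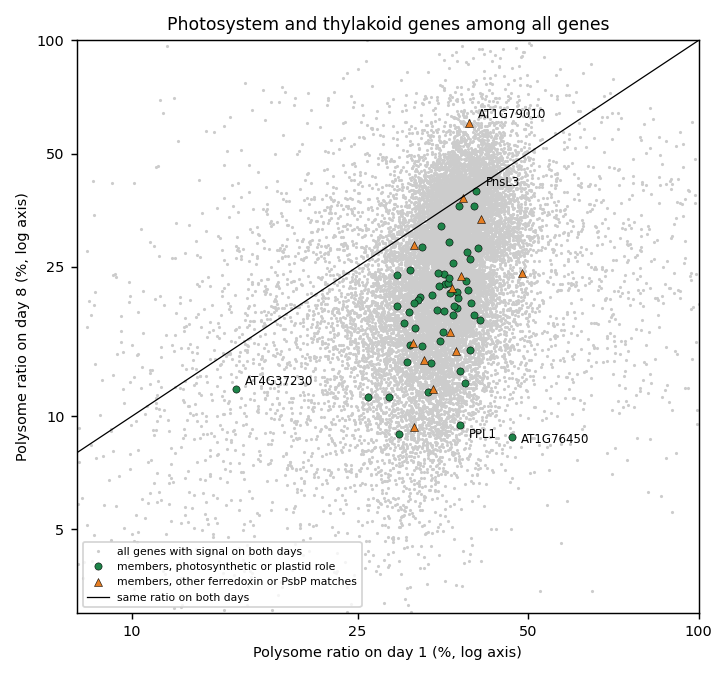
Polysome ratio on day 8 (y axis, percent) against day 1 (x axis, percent), both on log axes that leave out genes beyond their limits. Green circles are members with a photosynthetic or plastid role, orange triangles the other members, grey points all genes, and the line marks equal ratios. All members but AT1G79010 lie below the line, and the members other than AT4G37230 span less of the x axis than of the y axis.

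Error within an array limits what single genes can show. Different probes of the same gene had a median SD in log2 units of 0.33 for the day 8 ratio, 0.14 for the day 1 ratio and 0.28 for the change, over 448 genes with at least 2 probes. Repeated spots of the same probe had a median SD of 0.03 on both days. Only 2 members had a second probe. For PnsL2 (AT1G14150) the probes gave 24.2% and 19.4% on day 8, against 42.8% and 35.9% on day 1, and changes of -0.82 and -0.89. For AT1G51400, annotated as a small photosystem II protein, they gave 20.1% and 18.7% on day 8, against 32.8% and 42.8% on day 1, and changes of -0.71 and -1.19. Its second probe carries another annotation and did not match the words of the rule.

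All 13 genes annotated as photosystem I subunits were measured, counting PSAP (CURT1B), a thylakoid curvature protein that carries this annotation. Every gene had a lower ratio on day 8, with a median ratio of 22.4% on day 8, against 36.8% on day 1 and a median change of -0.67. Of the 13, 10 lay below the median gene and 2 were at least 2-fold lower, beside 25.7% of all genes. On day 1 the subunits were closely grouped, from 31.6% to 40.8%, and on day 8 they spread from 13.2% to 36.2%. The lowest was PSAE-2, a stromal subunit on the ferredoxin docking side, with 13.2% on day 8 and 37.9% on day 1 (-1.52). PSAG, a membrane subunit at the outer rim, had 18.6% on day 8 and 40.1% on day 1 (-1.11). These were the only subunits of photosystem I past 2-fold. At the other end stood PSAD-1, the stromal subunit that binds ferredoxin, with 36.2% on day 8 and 37.8% on day 1 (-0.06). PSAL, a membrane subunit needed for docking of mobile antenna, had 36.2% on day 8 and 40.1% on day 1 (-0.15). The ratios of PSAD-1 and PSAL thus differed between days by less than the SD between probes of a gene. PSAP, also known as CURT1B and involved in the curvature of thylakoid membranes, was nearest the group's median with 22.6% on day 8 and 36.1% on day 1 (-0.67). PSAF, the lumen-side subunit that docks plastocyanin, had 18.6% on day 8 and 36.8% on day 1 (-0.99).

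**Figure D2:**
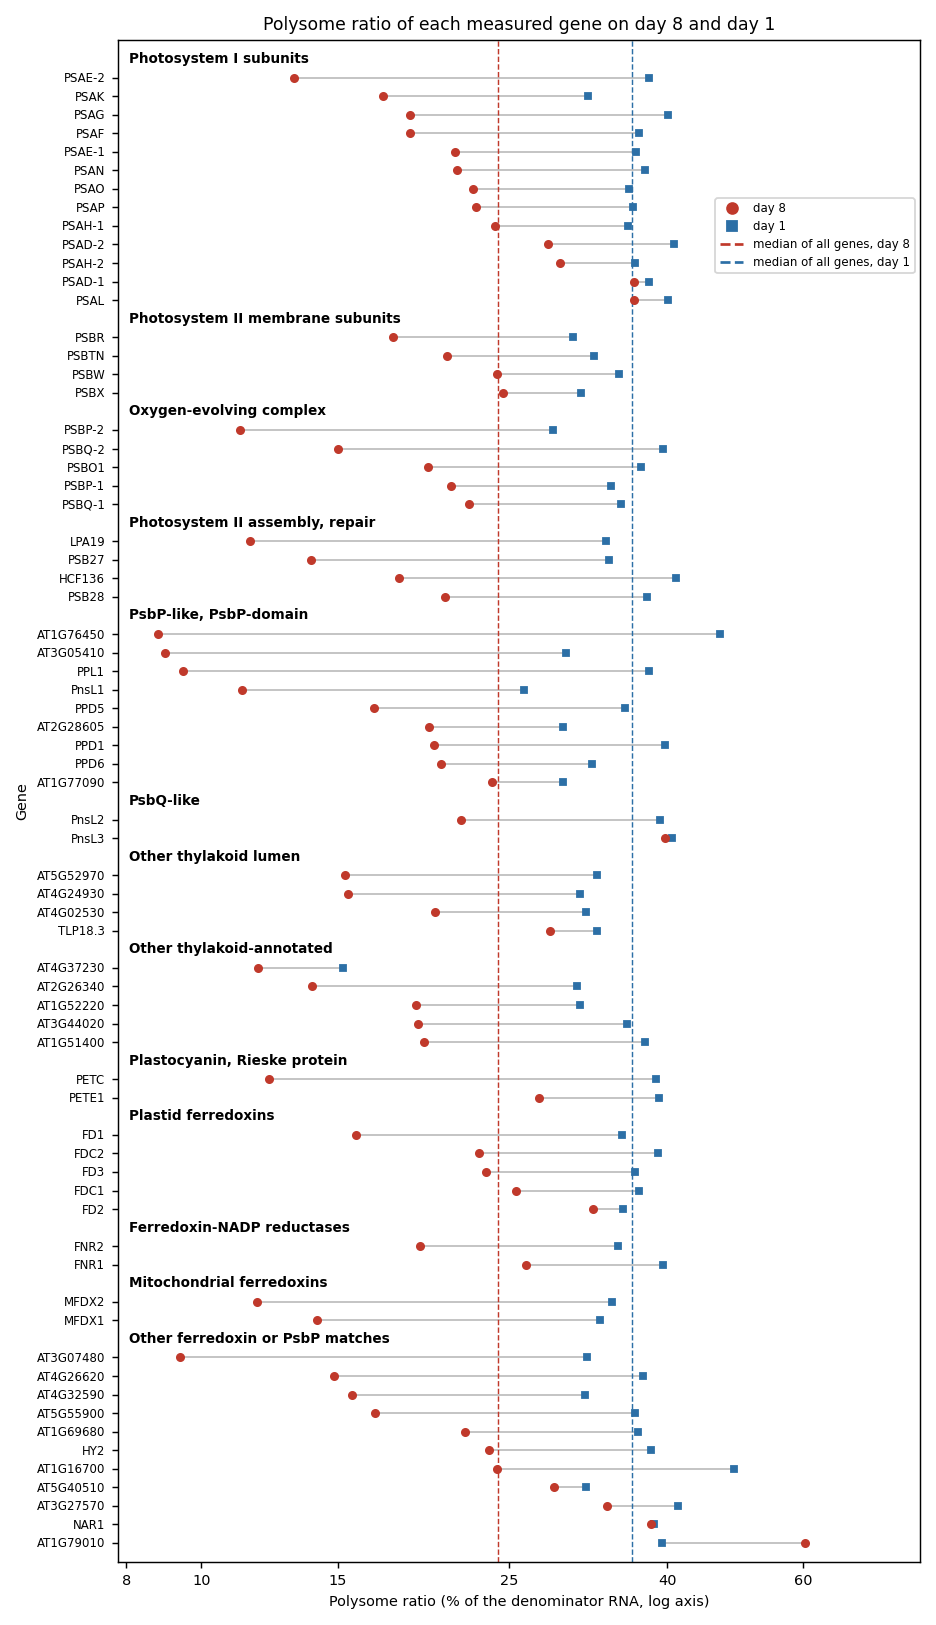
Polysome ratio in percent on a log axis for each measured gene (rows, grouped by role) on day 8 (red circles) and day 1 (blue squares), with the median of all genes on each day as dashed lines. Day 1 values run from 15.2% (AT4G37230) to 48.9% (AT1G16700), with quartiles of 32.2% and 38.2%, and day 8 values from 8.79% (AT1G76450) to 60.3% (AT1G79010), with quartiles of 15.5% and 24.0%.

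Small membrane subunits of photosystem II lay close to the median gene. The 4 measured genes had a median ratio of 22.4% on day 8, against 31.6% on day 1, and a median change of -0.58, with none past 2-fold. PSBR, which helps hold the oxygen-evolving proteins, had 17.7% on day 8 and 30.2% on day 1 (-0.77). PSBTN had 20.7% on day 8 and 32.2% on day 1 (-0.63). PSBW, which stabilises photosystem II supercomplexes, had 24.1% on day 8 and 34.7% on day 1 (-0.52). Its day 8 value and that of the next gene were near the no-signal value, at 0.10 and 0.03 from it on the log2 scale. PSBX had 24.5% on day 8 and 31.0% on day 1 (-0.34). All 4 lay below the median gene's ratio on day 1 already.

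The oxygen-evolving complex is a set of lumen proteins, PsbO, PsbP and PsbQ, that shield the manganese cluster. All 5 measured genes had lower ratios on day 8 and lay below the median gene, with a median ratio of 19.6% on day 8, against 34.8% on day 1 and a median change of -0.91. PSBQ-2 had 15.0% on day 8 and 39.5% on day 1 (-1.40). PSBP-2 had 11.2% on day 8 and 28.4% on day 1 (-1.34). These were the 2 of 5 past 2-fold, beside 25.7% of all genes, and each is the second copy of its subunit. PSBO1, the main manganese-stabilising protein, had 19.6% on day 8 and 37.0% on day 1 (-0.91). PSBP-1 had 21.0% on day 8 and 33.8% on day 1 (-0.68), and lay 0.21 from the no-signal value on day 8. PSBQ-1 (PSBQA) had 22.2% on day 8 and 34.8% on day 1 (-0.65), 0.18 from it.

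Factors of photosystem II assembly and repair were matched by the rule for 5 genes, of which 4 were measured. These had a median ratio of 15.8% on day 8, against 35.6% on day 1, and a median change of -1.24. All 4 lay below the median gene and 3 were past 2-fold, beside 25.7% of all genes. LPA19, a Psb27-type protein needed for maturation of the D1 reaction centre protein, had 11.6% on day 8 and 33.3% on day 1 (-1.53). PSB27, which acts in repair of photosystem II, had 13.8% on day 8 and 33.7% on day 1 (-1.28). HCF136, an assembly factor of the reaction centre, had 18.0% on day 8 and 41.1% on day 1 (-1.19). The fourth, PSB28, had 20.7% on day 8 and 37.7% on day 1 (-0.87). All 4 lay at least 0.29 from the no-signal value on day 8. From the median gene as 0, only LPA19 of these 4 was past 2-fold, beside 10.9% of all genes. Another 5 measured assembly factors lie outside the rule and are named here after their values were seen. LPA3 had 18.0% on day 8 and 38.6% on day 1 (-1.10). PSB33 had 18.2% on day 8 and 34.4% on day 1 (-0.92), and LPA1 had 19.9% on day 8 and 34.8% on day 1 (-0.81). The others were nearer to equal ratios. HCF173 had 29.2% on day 8 and 35.9% on day 1 (-0.30), and LPA2 had 28.2% on day 8 and 28.6% on day 1 (-0.02).

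PsbP-like and PsbP-domain proteins are relatives of PsbP with roles in assembly of photosystems and of the plastid NADH dehydrogenase-like (NDH) complex. All 9 were measured and lower on day 8, with a median ratio of 16.7% on day 8, against 32.0% on day 1 and a median change of -1.08. Of the 9, 8 lay below the median gene and 5 were at least 2-fold lower, beside 25.7% of all genes. AT1G76450 had the largest change of all members, with 8.79% on day 8 and 46.9% on day 1 (-2.42). Its day 1 value lay 0.15 from the no-signal value of that array. PPL1, which acts in recovery of photosystem II after photoinhibition, had 9.46% on day 8 and 37.9% on day 1 (-2.00). PPD5 was nearest the group's median with 16.7% on day 8 and 35.3% on day 1 (-1.08). AT3G05410, of the same family, had 8.97% on day 8 and 29.6% on day 1 (-1.72), and PnsL1 (PPL2), a subunit of the NDH complex, had 11.3% on day 8 and 26.1% on day 1 (-1.21). At the upper end were AT1G77090, with 23.7% on day 8 and 29.4% on day 1 (-0.31) and a day 8 value 0.09 from the no-signal value, and AT2G28605, with 19.7% on day 8 and 29.4% on day 1 (-0.58). The group held 3 of the 8 members that were at least 2-fold below the median gene's change, where 10.9% of all genes were.

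PsbQ-like proteins are subunits of the NDH complex that resemble PsbQ. PnsL3 (AT3G01440) was nearly equal on both days, with 39.7% on day 8 and 40.6% on day 1 (-0.03), and had the highest day 8 ratio of the members with a plastid role. PnsL2, averaged over its probes, had 21.7% on day 8 and 39.2% on day 1 (-0.85). The 3 measured NDH subunits among the members thus had changes of -0.03 for PnsL3, -0.85 for PnsL2 and -1.21 for PnsL1.

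Other thylakoid lumen proteins had a median ratio of 17.6% on day 8, against 31.9% on day 1, with a median change of -0.82 over 4 genes. AT5G52970 had 15.3% on day 8 and 32.4% on day 1 (-1.08). AT4G24930 had 15.5% on day 8 and 30.9% on day 1. These and the next gene are named in the annotation only as lumen proteins. AT4G02530 had 20.0% on day 8 and 31.4% on day 1 (-0.65). TLP18.3, which takes part in photosystem II repair, had 28.2% on day 8 and 32.4% on day 1 (-0.20), with its day 8 value 0.05 from the no-signal value.

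The 5 measured genes known mainly by a thylakoid or photosystem annotation had a median ratio of 18.9% on day 8, against 30.8% on day 1, and a median change of -0.90. AT2G26340 had 13.9% on day 8 and 30.6% on day 1 (-1.14). AT3G44020 had 19.1% on day 8 and 35.5% on day 1 (-0.90). AT1G51400, averaged over its probes, had 19.4% on day 8 and 37.5% on day 1 (-0.95). All 3 and the next gene lay below the median gene. AT1G52220 (CURT1C), a relative of PSAP, had 18.9% on day 8 and 30.8% on day 1 (-0.70). AT4G37230, annotated to the PsbO family, was low on both days with 11.8% on day 8 and 15.2% on day 1 (-0.37). It had the lowest day 1 ratio of the measured members.

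The carriers between the photosystems had unlike ratios on day 8. PETC, the Rieske iron-sulfur protein of the cytochrome b6f complex, had 12.2% on day 8 and 38.7% on day 1 (-1.66). PETE1, a plastocyanin, had 27.3% on day 8 and 39.0% on day 1 (-0.51), with its day 8 value 0.15 from the no-signal value. Both had nearly the same ratio on day 1. PETE2, the other plastocyanin, is annotated only as a cupredoxin and so lies outside the rule, and had 29.7% on day 8 and 34.4% on day 1 (-0.21).

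Plastid ferredoxins accept electrons from photosystem I and pass them to reductases. The 5 measured genes had a median ratio of 23.3% on day 8, against 36.3% on day 1, and a median change of -0.64. FD1 had 15.8% on day 8 and 35.0% on day 1 (-1.14), the only one past 2-fold. FD2, the major leaf form, had 32.1% on day 8 and 35.1% on day 1 (-0.13). FD3, the form of roots and other heterotrophic tissue, had 23.3% on day 8 and 36.3% on day 1 (-0.64). FDC1 and FDC2 are ferredoxins with an extended C terminus. FDC1 had 25.5% on day 8 and 36.8% on day 1 (-0.53). FDC2 had 22.9% on day 8 and 38.9% on day 1 (-0.77). FD3, FDC1 and FDC2 lay within 0.2 of the no-signal value on day 8, at 0.06, 0.03 and 0.16.

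Leaf ferredoxin-NADP reductases, which make NADPH from reduced ferredoxin, were both lower on day 8. FNR2 had 19.2% on day 8 and 34.6% on day 1 (-0.85). FNR1 had 26.2% on day 8 and 39.5% on day 1 (-0.59), with its day 8 value 0.10 from the no-signal value. The root forms, which lie outside the rule, had 30.1% on day 8 and 42.1% on day 1 for RFNR1 (-0.48), and 34.4% on day 8 and 42.8% on day 1 for RFNR2 (-0.32).

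Mitochondrial ferredoxins have no part in photosynthesis and were low on day 8. MFDX2 had 11.8% on day 8 and 34.0% on day 1 (-1.52). MFDX1 had 14.1% on day 8 and 32.7% on day 1 (-1.22). Both were past 2-fold, beside 25.7% of all genes.

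The 11 measured genes matched by the word ferredoxin or PsbP alone had a median ratio of 23.6% on day 8, against 37.2% on day 1. Their median change was -0.74, with 7 below the median gene and 5 past 2-fold lower, beside 25.7% of all genes. AT1G79010, annotated as an alpha-helical ferredoxin, was the only measured member with a higher ratio on day 8, with 60.3% on day 8 and 39.4% on day 1 (0.61). NAR1, which matures cytosolic iron-sulfur proteins, had 38.1% on day 8 and 38.5% on day 1 (-0.01). HY2, which makes the phytochrome chromophore, had 23.6% on day 8 and 38.1% on day 1 (-0.69), with its day 8 value 0.13 from the no-signal value. AT1G69680, a Mog1-type protein, had 21.9% on day 8 and 36.6% on day 1 (-0.74). AT3G07480, a ferredoxin-like protein, was lowest with 9.38% on day 8 and 31.5% on day 1 (-1.75). The sucrase/ferredoxin-like genes were spread widely, with changes of -1.33 for AT4G26620, -1.12 for AT5G55900, -0.31 for AT3G27570 and -0.14 for AT5G40510. Without these 11 and the mitochondrial ferredoxins, the remaining 55 measured members had a median change of -0.78. Of the 55, 45 lay below the median gene and 16 (29.1%) were at least 2-fold lower, beside 25.7% of all genes.

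Several subunits are encoded by a pair of genes, and 7 such pairs were measured in both copies. On day 1 the copies differed by at most 0.25 on the log2 scale, and on day 8 by 0.12 to 1.02. Between 2 probes of the same gene the difference was also larger on day 8 (median 0.45) than on day 1 (median 0.19). PSAE-2 was lower than PSAE-1 on day 8 (13.2% for PSAE-2 and 21.3% for PSAE-1) and close to it on day 1 (37.9% for PSAE-2 and 36.5% for PSAE-1). FD2 and FD1 had 32.1% for FD2 and 15.8% for FD1 on day 8, and 35.1% for FD2 and 35.0% for FD1 on day 1, so that their changes differed by 1.01. The changes of PSBQ-2 and PSBQ-1 differed by -0.75, those of PSAE-2 and PSAE-1 also by -0.75, those of PSBP-2 and PSBP-1 by -0.66, and those of PSAD-2 and PSAD-1 by -0.48. PSAH-2 and PSAH-1 had 29.1% for PSAH-2 and 23.9% for PSAH-1 on day 8, 36.3% for PSAH-2 and 35.6% for PSAH-1 on day 1, and changes that differed by 0.25, and for PETE2 and PETE1 it was 0.31. For scale, 2 probes of the same gene differed in their change by a median of 0.40 over 424 such genes, with an upper decile of 1.43. Every pair thus lay below that decile. Of the members in these pairs, PSAD-2, PSAH-1, PSBQ-1 and PETE1 lay within 0.2 of the no-signal value on day 8. Near-identical copies may share probe signal, and this was not tested because probe sequences were not used here.

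**Figure D3:**
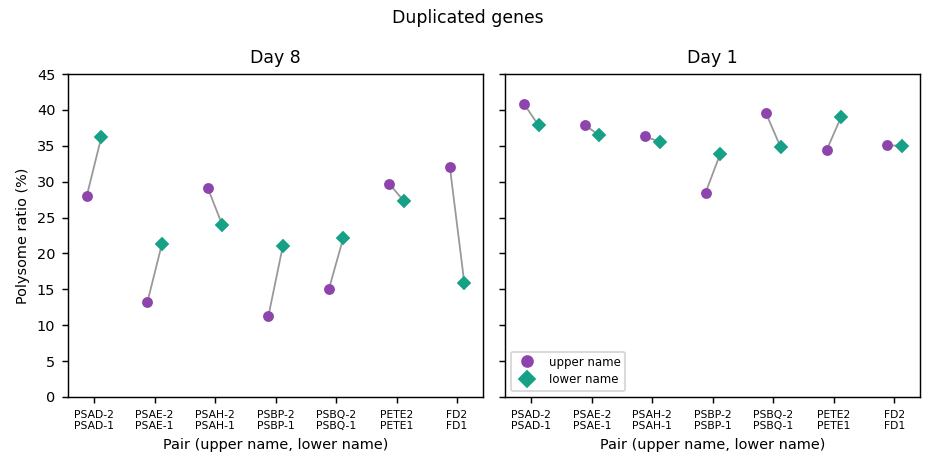
Polysome ratio in percent of both copies of 7 duplicated genes on day 8 (left) and day 1 (right), with the copy named in the upper line as a purple circle and that in the lower line as a green diamond. On day 1 all copies lie between 28.4% and 40.8%, and on day 8 the copies of every pair but PETE are farther apart on the log2 scale than on day 1. The difference between 2 probes of the same gene was also larger on day 8 (median 0.45) than on day 1 (median 0.19).

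A hand-written list held 25 genes outside the rule that act in or beside the photosystems, in the lumen or with ferredoxin, among them the root ferredoxin-NADP reductases and nitrite and sulfite reductases. Of these, 21 were measured. Their median was 21.9% on day 8 and 35.1% on day 1, with a median change of -0.64. Of the 21, 11 lay below the median gene and 3 were past 2-fold lower, beside 25.7% of all genes. PSBS (NPQ4), the sensor of lumen pH in photoprotection, had 13.4% on day 8 and 34.4% on day 1 (-1.36). PGR5, which acts in cyclic electron flow around photosystem I, had 11.0% on day 8 and 26.7% on day 1 (-1.28). GLU2, a ferredoxin-dependent glutamate synthase, was highest with 41.4% on day 8 and 35.6% on day 1 (0.22). The shift of the members relative to the median gene (-0.27) was larger than that of this list (-0.12), and the difference was not tested.

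Among all genes, 25.7% were at least 2-fold lower on day 8 and 1.18% at least 2-fold higher. Other parts of the photosynthetic apparatus, from lists of the same kind, gave these values beside the members' median of -0.79. The light-harvesting antenna, the pigment proteins that feed both photosystems, had a median ratio of 14.6% on day 8, against 37.2% on day 1 (18 genes, median change -1.48), with 10 past 2-fold lower and 3 past 2-fold higher. It ranged from LHCB3 (-2.32) to LHCB2.1 (2.80), and the members from -2.42 to 0.61. On day 8, LHCB2.1 stood at 206% and LHCB2.2 at 190%, values above 100% that cannot be a share of total RNA. The nuclear subunits of the plastid ATP synthase had changes of -1.92 for PDE334, -1.38 for ATPC2, -0.28 for ATPC1 and -0.10 for ATPD. The NDH complex had a median change of -0.71 over 5 genes, from NdhO (-2.23) to PnsB1 (0.02). Calvin cycle enzymes, which fix carbon in the stroma, had a median change of -0.75 over 20 genes, with 9 past 2-fold lower and a range from CP12-1 (-2.76) to AT1G56190 (0.89).

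Proteases, kinases and a phosphatase of the thylakoid, which repair and regulate the photosystems, had a higher median ratio on day 8 than the members. Their median was 32.4% on day 8 and 38.9% on day 1 (9 genes, median change -0.37), with 8 of 9 above the median gene. VAR1 (FTSH5), a subunit of the protease that removes damaged D1, had 39.5% on day 8 and 34.4% on day 1 (0.20), while the phosphatase TAP38 had 10.8% on day 8 and 29.5% on day 1 (-1.44). Regulators of photosynthesis genes, transcription and plastid sigma factors, had a median ratio of 33.3% on day 8, against 36.7% on day 1 (7 of 11 genes, median change -0.19), from HY5 (-1.30) to SIG2 (-0.06). None of these differences between lists was tested.

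**Figure D4:**
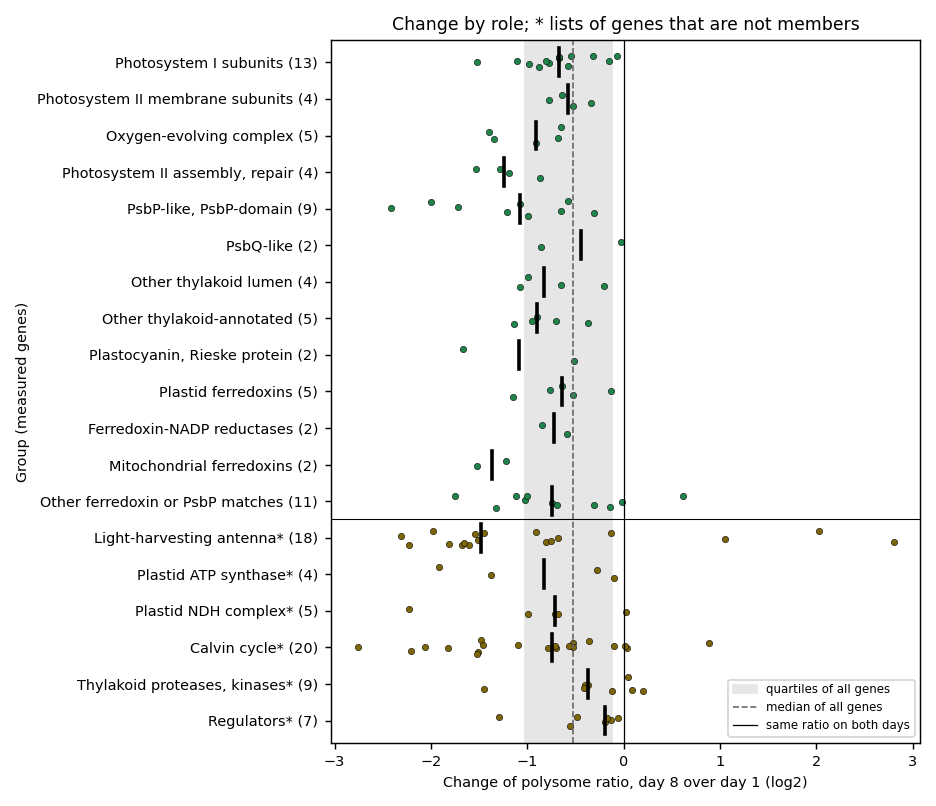
Change of the polysome ratio, day 8 over day 1 on the log2 scale, for each measured gene by role (rows above the line) and for lists of other photosynthetic genes (rows below the line, marked with an asterisk), with group medians as black bars and the quartiles and median of all genes as a grey band and dashed line. Assembly factors, PsbP-like proteins and the antenna have medians of -1.24, -1.08 and -1.48, left of the median gene at -0.52. So do mitochondrial ferredoxins (-1.37, 2 genes) and plastocyanin with the Rieske protein (-1.09, 2 genes). Medians of PsbQ-like proteins (-0.44), thylakoid proteases and kinases (-0.37) and regulators (-0.19) lie right of it.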

How the data were processed

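Values are the authors' deposited log10 polysome ratios of 39102 features on 2-colour Agilent arrays, 1 array a day. The steps between scanner signals and ratios are not given in the sources used here. The authors' deposited change column equals day 8 less day 1 within 0.001 (log10), and the deposited series table holds the same ratios. The log base was read from the spike-in probes. Ratios were converted to log2 and to percent.

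The value of features without signal was estimated for each array as a local median over 30 neighbouring features whose ratio lay within 0.04 of the median negative control, with array positions taken from feature numbers. A feature within 0.006 of it was left out (26.9% of gene probes on day 8 and 25.5% on day 1, and 95.8% and 94.6% of negative controls). The step was also run on data simulated from its own fitted values and calls. Such a run cannot show whether a real feature at that level carries signal. Probes naming a single locus were averaged per gene. Symbols came from RefSeq (TAIR10.1), which held 25221 of 25295 loci and all 76 members. No genome build is named in those sources, and positions are left out.

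All values of small role groups are given, and of larger groups the lowest, highest and middle genes and both copies of duplicated subunits. Members, roles and lists were chosen with earlier results of these data known, and 2 of the role groups were added after the values were seen. With 1 array a day there is no test. The alternatives changed the treatment of features without signal, the position of 0, the probes, the members and the denominator. Python 3.11.15, numpy 2.4.6, pandas 2.3.3, scipy 1.17.1 and matplotlib 3.10.9 were used.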

Additional observations from a re-analysis of the deposited data

How the results depend on the processing

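With the ratio turned, the median change of the members (-0.79) was 0.79, 14 members lay below the median gene, 0 were lower by 2-fold or more, and the medians were 499% on day 8 and 278% on day 1. The median change was negative under the 9 other alternatives, at -0.50 counted from the median spike-in probe and -0.27 from the median gene. The count of members at least 2-fold lower, 23 as deposited, was 11 and 8 on these scales. The day 1 median read as a share against nonpolysomal RNA was 26.4% in place of 35.9%. The count below the median gene, 54 of 68, was 47 of 76 when features without signal were kept, where the median gene lay at -0.67. The members' median change was then still -0.79, and 25 of 76 were at least 2-fold lower, beside 34.8% of all genes. The turned ratio and the next 2 alternatives were chosen after seeing the data. Genes with a photosynthetic or plastid role alone gave -0.78. Leaving out members within 0.2 of the no-signal value on day 8 kept 52 members with a median change of -0.93, 42 below the median gene and 22 at least 2-fold lower. That step drops day 8 values near 25.1%, above the members' day 8 median of 20.0%, and was not applied to all genes. Its values therefore have no matching share of all genes and cannot show a larger shift. The 26 measured photosystem subunits and carriers listed by hand gave a smaller median change of -0.68. From the median gene this was -0.16, beside -0.27 for all members. No member was above 100%, so leaving such genes out removed none. No paired analysis was possible because each day has 1 array. Signal above background was not used here, so weak probes can only be recognised by their closeness to the no-signal value.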

Other observations

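The alpha-helical ferredoxin genes AT1G79010 and AT1G16700 carry the same annotation and differed in the direction of their change. AT1G79010 had 60.3% on day 8 and 39.4% on day 1, the highest day 8 ratio of all members. AT1G16700 had 24.1% on day 8, against 48.9% on day 1, and its change was -1.02. On both days AT1G16700 lay close to the no-signal value, at a log2 distance of 0.07 on day 8 and 0.12 on day 1, and a feature without signal has a change of -1.10. AT1G79010 lay 1.27 from it on day 8.

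A day 8 ratio within 0.2 of the no-signal value was found for 16 of 68 measured members (23.5%), against 20.3% of all genes, and on day 1 for 2 members (2.94%), against 5.57% of all genes. The 16 were PSAD-2, PSAO, PSAP, PSAH-1, PSBX, PSBW, AT1G77090, PETE1, FNR1, AT1G16700, HY2, TLP18.3, PSBQ-1, FDC2, FD3 and FDC1, and those on day 1 were AT1G76450 and AT1G16700. For PSBO2, the second gene of the manganese-stabilising protein, the day 8 value of 25.6% cannot be told from that of a feature without signal.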
